A study of Mus musculus with 6 samples.

Results

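Polycomb repressive complex 2 (PRC2) and the enzymes that remove its mark were examined in muscle satellite cells (SCs) that lack Slug. The 10 genes were taken from a fixed list of names: the methyltransferases Ezh1 and Ezh2, their partners Eed and Suz12, the histone binders Rbbp4 and Rbbp7, the accessory subunits Jarid2 and Mtf2, and the demethylases Kdm6a and Kdm6b. They are 10 of the 22180 genes measured, each read from a probe set that carries its symbol alone, and the brightest one where a gene has several. Gene expression was profiled in SCs of 3 Slug-/- and 3 Slug+/+ samples, with 1 Affymetrix Mouse Gene array per sample. All samples came from adult male C57BL6 mice and from resting hindlimb muscle, and the cells were sorted as CD34+ and integrin-α7+ while negative for CD45, Sca1, CD11b and CD31, with RNA taken before any culture. The Slug-/- mice lack the gene in the whole animal, so the deletion is not confined to SCs, and the labels call the replicates biological without naming separate mice. P-values therefore measure the spread between these samples, whatever its source.

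PRC2 places methyl groups on a lysine of histone H3 (H3K27), a mark that keeps developmental genes silent. Ezh1 and Ezh2 are alternative catalytic subunits, Ezh2 being known mostly from dividing cells and Ezh1 from resting ones. Kdm6a (UTX) and Kdm6b (JMJD3) take the mark off again. In SCs, Ezh2 is known to hold down the Ink4a locus, from which p16 is made, and genes of other lineages, and UTX is known to be needed for Myog induction in regenerating muscle.

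In the arrays, none of the 10 genes passed the test between Slug-/- and Slug+/+ SCs, and the groups overlapped for all of them but Rbbp7. Groups did not overlap for 10.6% of all genes, counting either direction. The catalytic and scaffold subunits Ezh1, Ezh2, Eed and Suz12 had log2 differences between 0.02 and 0.11. Differences further from 0 were those of Kdm6a (0.54), Rbbp7 (0.45), Rbbp4 (0.42) and Jarid2 (-0.43). Their order depends on single arrays, since without replicate 3 of Slug-/- SCs Kdm6a had 0.36, Rbbp4 0.61 and Jarid2 -0.58. Differences are Slug-/- minus Slug+/+ on the log2 scale of the deposited expression values, so that 1 is a fold of 2. By limma, 0 of the 10 genes passed at an adjusted p of 0.05, against 0 (0%) of all genes, and 0 passed at an unadjusted p of 0.05, against 5.8% of all genes (3.31% higher and 2.49% lower in Slug-/- SCs). When a fold over 2 was asked for as well, the count was again 0, against 0.897% of all genes (0.586% higher and 0.311% lower). A plain unpaired test also put 0 of the 10 at an unadjusted p of 0.05. In sorted cells measured in bulk, more cells that express a gene and more RNA per cell cannot be told apart.

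Sequence at the starts of these genes was searched for letters that Slug is known to read. Slug binds the E-box CAGGTG as a repressor, and E2F factors, which are known to drive Ezh2 in dividing cells, read TTTGGCGC or TTTCCCGC. RefSeq promoter windows of 300 bases (250 before a transcript's start and 50 from it on) were at hand for 9 of the 10 genes, all but Kdm6b, in 11 windows. On either strand, the E-box letters lay in 1 of these windows, that of Ezh1, against 20.2% of 32851 windows of all genes. The E2F letters lay in 2, those of Ezh2 and Suz12, against 1.56% of all windows. The 3 windows are shown because they are those of the 11 that hold these letters. Each is read 5′ to 3′ from GRCm38.p6 with the matched letters in capitals.

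Ezh1 (chr11:101226414-101226713, minus strand): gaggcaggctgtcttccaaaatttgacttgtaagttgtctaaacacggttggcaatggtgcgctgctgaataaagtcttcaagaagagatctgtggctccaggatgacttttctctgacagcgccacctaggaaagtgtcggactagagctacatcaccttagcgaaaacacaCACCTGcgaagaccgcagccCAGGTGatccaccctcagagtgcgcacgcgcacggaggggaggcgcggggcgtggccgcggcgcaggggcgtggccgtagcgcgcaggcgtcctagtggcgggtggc
Ezh2 (chr6:47594981-47595280, minus strand): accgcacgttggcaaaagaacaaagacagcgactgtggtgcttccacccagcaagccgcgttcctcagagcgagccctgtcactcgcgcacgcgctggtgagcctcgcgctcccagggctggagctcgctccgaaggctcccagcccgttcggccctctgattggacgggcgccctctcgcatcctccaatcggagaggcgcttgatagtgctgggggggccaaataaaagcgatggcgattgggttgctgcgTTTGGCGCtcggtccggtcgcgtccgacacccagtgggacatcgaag
Suz12 (chr11:79992856-79993155, plus strand): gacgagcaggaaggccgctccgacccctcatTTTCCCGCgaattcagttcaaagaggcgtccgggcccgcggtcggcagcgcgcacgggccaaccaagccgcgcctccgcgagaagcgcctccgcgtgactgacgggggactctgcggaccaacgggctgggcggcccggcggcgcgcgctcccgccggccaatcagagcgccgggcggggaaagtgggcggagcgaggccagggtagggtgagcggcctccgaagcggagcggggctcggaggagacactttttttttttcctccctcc

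In the Ezh1 window the E-box letters stand 2 times, as CACCTG beginning 77 bases before the start and as CAGGTG beginning 57 bases before it. In Ezh2, TTTGGCGC begins 3 bases past the first transcribed base, and in Suz12, TTTCCCGC begins 219 bases before the start. These matches are letters only, and binding was not measured in these data.

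The methyltransferases came first. Ezh1, the catalytic subunit of resting tissue, had log2 values of 7.37, 8.42 and 7.89 on the Slug-/- arrays, against 7.82, 7.79 and 7.97 on the Slug+/+ arrays. The Slug+/+ arrays lay inside the range of the Slug-/- arrays, which was 1.05 wide against 0.18 in Slug+/+ SCs. Its difference was 0.03 (standard error 0.27, 95% interval -0.60 to 0.66, adjusted p = 0.992 from limma). Ezh2, the subunit of dividing cells, had 7.04, 6.28 and 7.18 in Slug-/- SCs, against 6.44, 6.76 and 7.03 in Slug+/+ SCs. The groups overlapped, with the highest and the lowest of the 6 values both on Slug-/- arrays. The difference of Ezh2 was 0.09 (standard error 0.28, 95% interval -0.57 to 0.75, adjusted p = 0.985 from limma). The signs of Ezh1 and Ezh2 turn with quantile normalization, at -0.066 and -0.032.

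Replicate 2 of Slug-/- SCs held the highest Ezh1 and the lowest Ezh2 of all 6 arrays. Within an array, Ezh1 minus Ezh2 was 0.33, 2.14 and 0.71 in Slug-/- SCs, against 1.38, 1.03 and 0.94 in Slug+/+ SCs. The mean was 1.06 ± 0.95 in Slug-/- SCs and 1.12 ± 0.23 in Slug+/+ SCs (SD, n = 3 each), a difference of -0.06 (two-sided exact permutation test over 20 splits, p = 1). This pair, and 3 others given further on, were chosen after their values were seen.

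Eed, which binds the methyl mark and stimulates the enzyme, had 6.98, 6.03 and 6.64 in Slug-/- SCs, against 6.45, 6.04 and 7.10 in Slug+/+ SCs. Both genotypes spread over about 1 log2 unit and overlapped fully. Its difference was 0.02 (standard error 0.34, 95% interval -0.77 to 0.81, adjusted p = 0.995 from limma), and -0.10 with quantile normalization. Suz12, the scaffold that holds the complex together, had 4.29, 4.49 and 4.69 in Slug-/- SCs, against 4.36, 4.31 and 4.47 in Slug+/+ SCs. The difference of 0.11 had the narrowest interval of the 10, -0.30 to 0.53 (standard error 0.18, adjusted p = 0.959 from limma). In folds, that interval ran from 0.813 to 1.44. The difference was 0.014 when replicate 3 of Slug-/- SCs was left out.

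**Figure D1:**
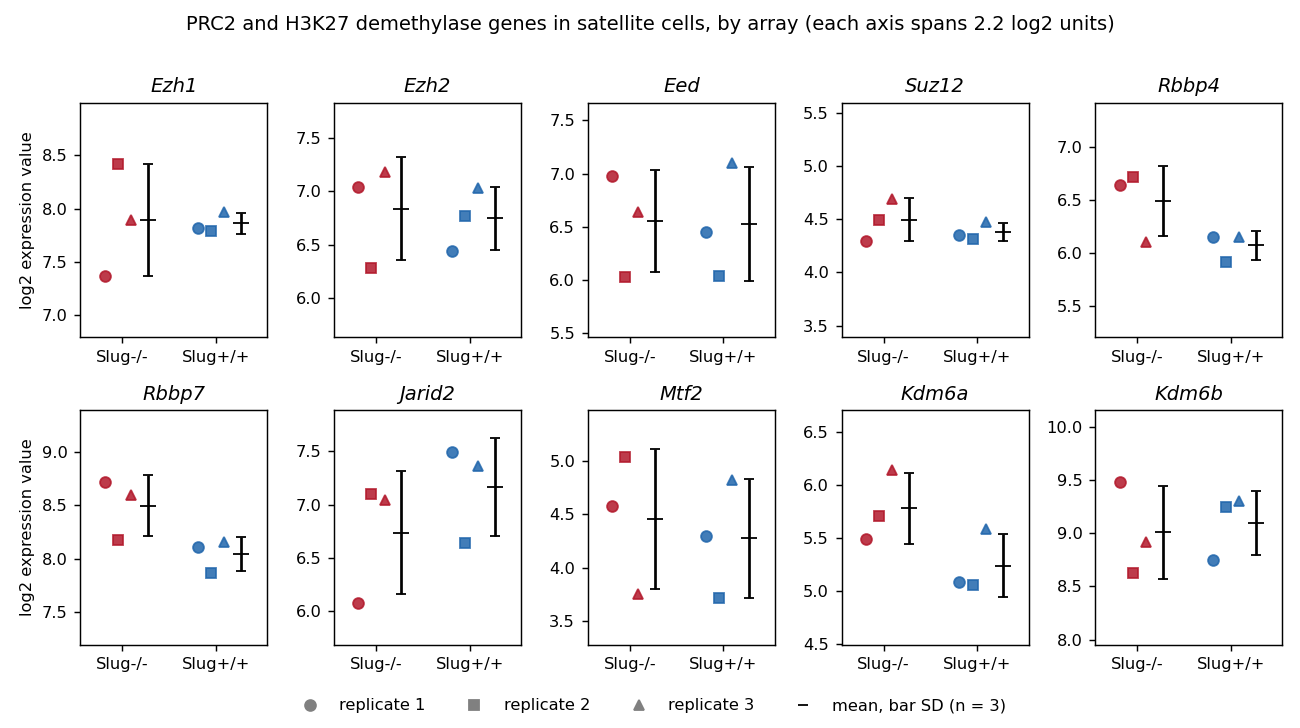
Log2 expression values of the 10 genes on each of the 3 Slug-/- (red) and 3 Slug+/+ (blue) arrays, with the marker shape giving the replicate number and black bars the mean and SD of 3 arrays. Rbbp7 is the 1 gene whose Slug-/- values, 8.17 to 8.72, all lie above its Slug+/+ values, 7.86 to 8.16, as did 5.24% of all genes.

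The histone binders had positive differences that did not pass the test. Rbbp7, a WD-repeat protein that carries PRC2 and other complexes to histones, had 8.72, 8.17 and 8.60 in Slug-/- SCs, against 8.11, 7.86 and 8.16 in Slug+/+ SCs. Every Slug-/- array was above every Slug+/+ array, though by only a narrow gap at replicate 2 of Slug-/- SCs. Of all genes, 5.24% were parted in this direction and 10.6% in either. The mean was 8.50 ± 0.29 in Slug-/- SCs and 8.04 ± 0.16 in Slug+/+ SCs (SD, n = 3 each), a fold of 1.37 (95% interval 0.983 to 1.91, adjusted p = 0.877 from limma). Rbbp4, its close relative, had 6.64, 6.71 and 6.11 in Slug-/- SCs, against 6.15, 5.91 and 6.15 in Slug+/+ SCs. Replicates 1 and 2 of Slug-/- SCs were above all Slug+/+ arrays, and replicate 3 was among them. The fold of Rbbp4 was 1.33 (95% interval 0.944 to 1.88, adjusted p = 0.897 from limma).

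Probe sets of Rbbp4 disagreed. A second, dimmer one with its symbol alone lay between 4.32 and 5.30 in Slug-/- SCs, against 4.48 to 5.37 in Slug+/+ SCs, a difference of -0.01. Another, which it shares with the symbol Sync, had 7.01, 5.50 and 6.83 in Slug-/- SCs, against 6.30, 6.76 and 6.75 in Slug+/+ SCs, a difference of -0.16. The higher Rbbp4 value therefore rests on 1 of its 3 probe sets. With the mean of the first pair its difference was 0.20. Rbbp7 minus Rbbp4 within an array averaged 2.01 ± 0.52 in Slug-/- SCs and 1.97 ± 0.03 in Slug+/+ SCs (SD, n = 3 each; two-sided exact permutation test, p = 0.9).

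The accessory subunits, which steer PRC2 to its sites in alternative forms of the complex, had differences of opposite sign, and neither passed. Jarid2, which helps recruit PRC2 and carries an inactive demethylase fold, had 6.07, 7.09 and 7.04 in Slug-/- SCs, against 7.50, 6.64 and 7.36 in Slug+/+ SCs. Its lowest value was replicate 1 of Slug-/- SCs, and the other Slug-/- arrays lay between those of Slug+/+ SCs. The difference of -0.43 (standard error 0.35, 95% interval -1.23 to 0.38, adjusted p = 0.922 from limma) shrank to -0.10 when replicate 1 of the knockout was left out. Mtf2, a Polycomb-like protein that binds CpG-rich DNA, had 4.58, 5.04 and 3.75 in Slug-/- SCs, against 4.29, 3.71 and 4.82 in Slug+/+ SCs. With both genotypes spread over more than 1 log2 unit, its interval was the widest, -0.73 to 1.10 about a difference of 0.18 (adjusted p = 0.976 from limma). Its sign turns when replicate 2 of Slug-/- SCs (-0.11) or of Slug+/+ SCs (-0.10) is left out.

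Of the demethylases, Kdm6a had a difference of 0.54 and Kdm6b one of -0.09, and neither passed. Kdm6a, encoded on the X chromosome, had 5.49, 5.71 and 6.14 in Slug-/- SCs, against 5.08, 5.06 and 5.59 in Slug+/+ SCs. All Slug-/- arrays were above replicates 1 and 2 of Slug+/+ SCs, while replicate 3 of Slug+/+ SCs fell between replicates 1 and 2 of Slug-/- SCs. The means were 5.78 ± 0.33 in Slug-/- SCs and 5.24 ± 0.30 in Slug+/+ SCs (SD, n = 3 each), a fold of 1.45 (95% interval 0.983 to 2.14, unadjusted p = 0.0585, adjusted p = 0.871 from limma). In absolute size this difference exceeded that of 90.6% of all genes. Kdm6b, which is known as the inducible one of the pair, had 9.49, 8.62 and 8.92 in Slug-/- SCs, against 8.75, 9.24 and 9.30 in Slug+/+ SCs. The groups overlapped, and the difference was -0.09 (standard error 0.27, 95% interval -0.72 to 0.54, adjusted p = 0.985 from limma). A second probe set of Kdm6b had a difference of -0.18, with 3.93, 4.72 and 3.89 in Slug-/- SCs, against 4.23, 4.26 and 4.59 in Slug+/+ SCs.

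Uty, the Y-linked relative of Kdm6a with little demethylase activity, had a difference of the other sign. Its values were 3.56, 4.60 and 4.59 in Slug-/- SCs, against 4.45, 4.97 and 5.08 in Slug+/+ SCs, a difference of -0.58 (adjusted p = 0.901 from limma). Within an array, Kdm6a minus Uty was 1.93, 1.11 and 1.55 in Slug-/- SCs, against 0.63, 0.09 and 0.50 in Slug+/+ SCs. These values did not overlap, and their means differed by 1.12 (two-sided exact permutation test, p = 0.1, the smallest that 3 arrays against 3 allow). Over the 4 pairs the adjusted p was 0.2. With Kdm6a at 0.54 and Uty at -0.58, neither passing, the gap of 1.12 restates their own differences of opposite sign. Because the pair was chosen after its values were seen, the gap is given as a description. The plot of gene pairs shows this pair beside that of Ezh1 and Ezh2.

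**Figure D2:**
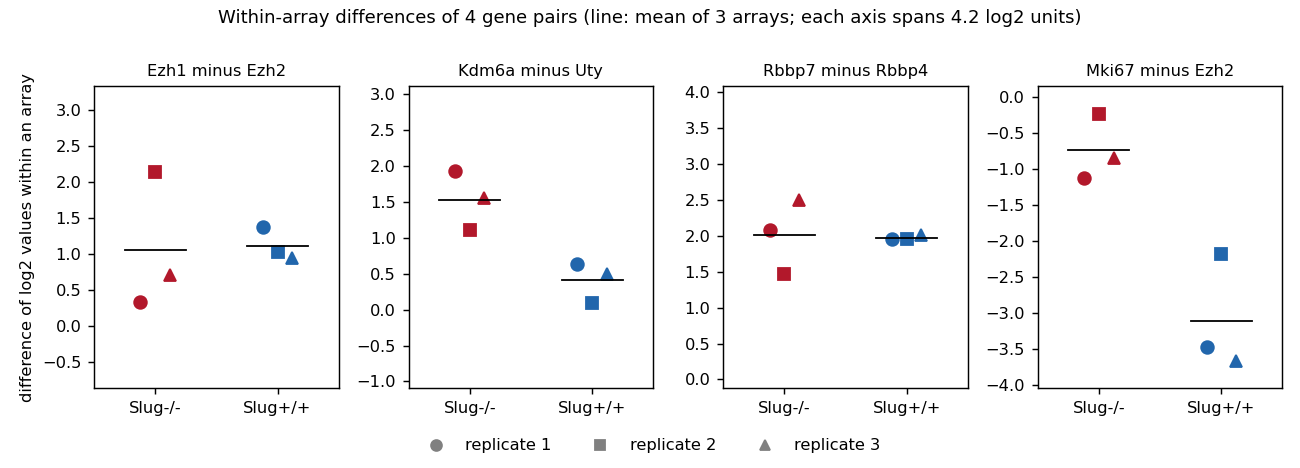
Difference of 2 genes' log2 values within each array, for 4 pairs, in 3 Slug-/- (red) and 3 Slug+/+ (blue) arrays, with a line at each mean. Kdm6a minus Uty and Mki67 minus Ezh2 were parted by genotype, with Slug-/- arrays higher, while Ezh1 minus Ezh2 and Rbbp7 minus Rbbp4 overlapped. All 4 pairs were chosen after their values were seen, and both parted pairs had an adjusted p of 0.2 (exact permutation test). The gap of Mki67 minus Ezh2 largely restates the difference of Mki67 alone.

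The intervals set how large a change the arrays could have missed. For 7 of the 10 genes the 95% interval lay within a fold of 2 either way, which held for 76.2% of all genes. The 3 others were Jarid2, whose interval reached below -1, and Mtf2 and Kdm6a, whose intervals reached above 1. Of the 10 differences, 8 were positive and 2 negative, and 5 were positive with quantile normalization. Their median was 0.10, beside -0.01 over all genes and 0.042 over genes above the median signal, and was 0.015 with quantile normalization. Their median absolute size was 0.15, beside 0.18 over all genes. Every value of the 10 genes was at least 3.71. Olfactory receptor genes, taken here as mostly silent in muscle, served as a guide to background, with a 95th percentile of 3.04.

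**Figure D3:**
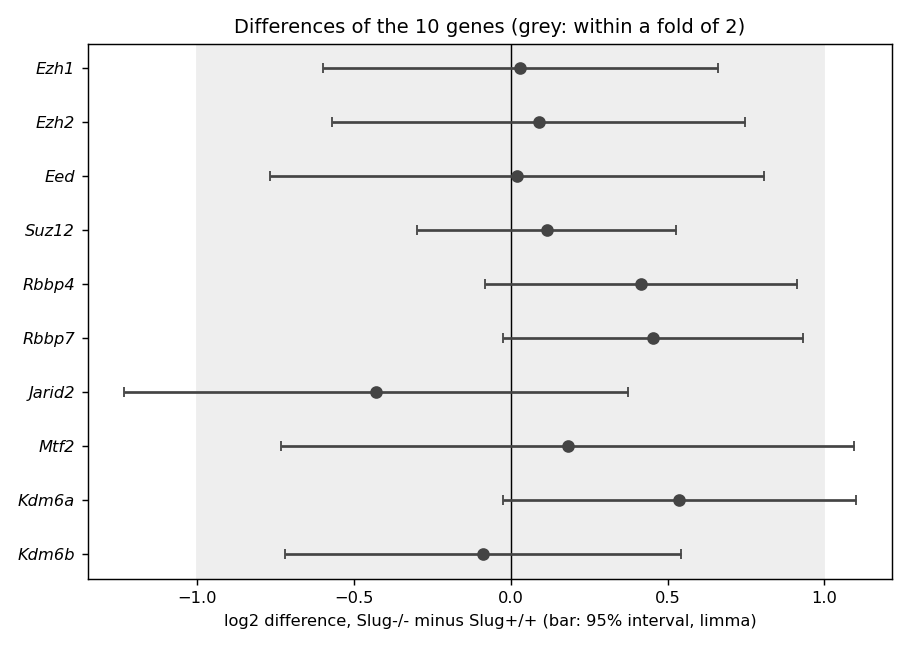
Log2 difference of each gene, Slug-/- minus Slug+/+, with its 95% interval from limma over 6 arrays, and a grey band for a fold of 2. All 10 intervals cross 0, and those of Jarid2, Mtf2 and Kdm6a leave the band.

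Other parts of the same machinery were read from lists. Of 6 further accessory subunits of PRC2, Phf19, a Polycomb-like protein, was the 1 gene higher at an unadjusted p of 0.05, beside 3.31% of all genes (0.48, unadjusted p = 0.0348, adjusted p = 0.838 from limma). Its 6 values, 2.52 to 2.99 in Slug-/- SCs and 2.24 to 2.43 in Slug+/+ SCs, all lay under the background guide. Phf1, another of that family, had -0.46 and did not pass. Aebp2, Epop, Lcor and Ezhip had differences between -0.04 and 0.13. The list's median was 0.04.

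Kdm6a works in the KMT2C/D complexes, which methylate histone H3 at enhancers. Of its 9 partners there, 2 passed an unadjusted p of 0.05, beside 5.8% of all genes. Wdr5, a core subunit, was higher (0.45, unadjusted p = 0.0396) and Rbbp5, another core subunit, was lower (-0.95, unadjusted p = 0.0475), with adjusted p = 0.850 and 0.858 from limma. Rbbp5 had 4.58, 6.09 and 5.40 in Slug-/- SCs, against 6.24, 5.89 and 6.80 in Slug+/+ SCs, which overlap. Kmt2c, an enzyme of these complexes, had 0.09, and Kmt2d was nearer to 0. Ash2l (0.47), Dpy30 (0.46) and Pagr1a (-0.51, under the background guide on all arrays) did not pass. Crebbp and Ep300, which acetylate the same lysine that PRC2 methylates, had 0.15 and 0.41, and neither passed.

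Rbbp4 and Rbbp7 also serve NuRD, CAF-1 and SIN3, complexes of deacetylation and histone deposition. Of 11 NuRD genes, whose median was 0.16, 8 were positive and 1, Mta2, was higher at an unadjusted p of 0.05, beside 3.31% of all genes (0.60, unadjusted p = 0.0433, adjusted p = 0.858 from limma). Mta2 had 6.54, 5.71 and 6.13 in Slug-/- SCs, against 5.30, 5.58 and 5.71 in Slug+/+ SCs, so that the groups barely parted. Mbd2, which reads methylated DNA, had 0.47 and did not pass. Among 8 CAF-1 and SIN3 genes, 0 passed, 6 were positive and the median was 0.13. Ing2 and Sin3a, with differences of 0.52 and 0.30, had the smallest p there. Of 6 methyltransferases whose marks oppose PRC2, 0 passed. Nsd2 had the smallest p of these (difference 0.69, unadjusted p = 0.091 from limma). Kmt2a, which methylates H3K4, had -0.28 and lay lower on every Slug-/- array, as did 5.4% of all genes.

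**Figure D4:**
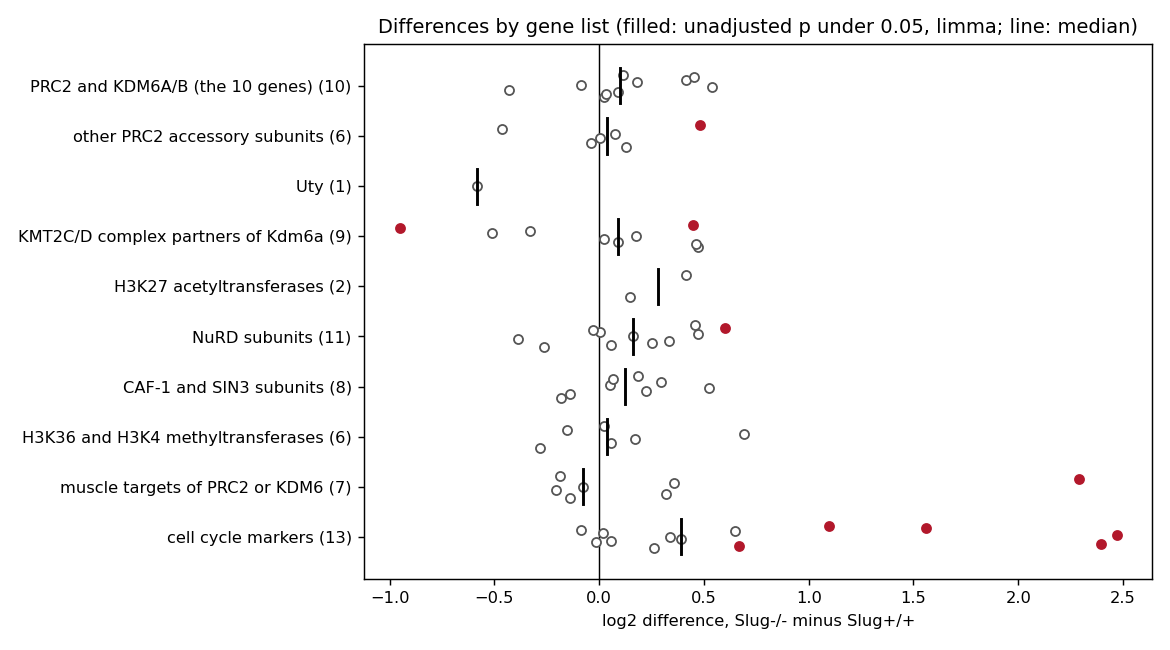
Log2 difference, Slug-/- minus Slug+/+, of every measured gene in 10 lists, with the number of genes in brackets, a line at each list's median, and filled points for genes at an unadjusted p under 0.05 from limma. The 10 PRC2 and demethylase genes lie between -0.43 and 0.54, and the points farthest right are Myog, Mki67 and Cdk1, the last of which lay under the background guide on all 3 Slug+/+ arrays.

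Genes known as targets of PRC2 or of the demethylases in muscle were read next. Cdkn2a, the gene of p16Ink4a and p19Arf, had 3.89, 3.69 and 3.50 in Slug-/- SCs, against 4.18, 3.54 and 3.76 in Slug+/+ SCs. The difference was -0.14 (95% interval -0.65 to 0.37, adjusted p = 0.960 from limma). These values lay not far above the background guide of 3.04, so the size of the difference is uncertain. Its probe set is named for the gene alone and is not assigned to either product here. Of 7 such genes, 1 was higher at an unadjusted p of 0.05 and also past a fold of 2, beside 0.586% of all genes. That was Myog, the myogenic differentiation factor that UTX is known to open, at 8.43, 7.03 and 8.27 in Slug-/- SCs, against 6.03, 5.15 and 5.68 in Slug+/+ SCs (adjusted p = 0.619 from limma). Cdkn2b, the neighbour of Cdkn2a, had 0.32, and Has2, a hyaluronan synthase known as a JMJD3 target, had -0.08 with all values under the background guide. The median of the 7 was -0.08.

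Ezh2 is usually read as a companion of the cell cycle, so cycling markers were set beside it. Of 13 measured markers, 5 were higher at an unadjusted p of 0.05 (Mki67, Cdk1, Top2a, Ccna2 and Tyms), beside 3.31% of all genes in that direction. Of the 5, 4 (all but Ccna2) also passed a fold of 2, beside 0.586% of all genes. This list, like the others, was chosen with earlier results of these data known, so its counts are a description. Cdk1, Top2a and Ccna2 lay under the background guide on all 3 Slug+/+ arrays, as did Mki67 on 1 of them, so the sizes of these differences are uncertain. Pcna (0.02), Mcm2 (-0.02), Mcm3 (0.06) and Rrm2 (-0.09) had differences no further from 0 than that of Ezh2. Mcm5 (0.39), Mcm6 (0.34), Aurkb (0.26) and Plk1 (0.65) were positive and did not pass. Mki67 had 5.92, 6.05 and 6.34 in Slug-/- SCs, against 2.96, 4.58 and 3.36 in Slug+/+ SCs (adjusted p = 0.493 from limma), with no overlap. Mki67 minus Ezh2 within an array was -0.73 ± 0.46 in Slug-/- SCs and -3.11 ± 0.81 in Slug+/+ SCs (SD, n = 3 each). With Ezh2 differing by 0.09, this gap largely restates Mki67's own difference of 2.47 and is given as a description. On replicate 2 of Slug-/- SCs, Ezh2 had its lowest value, 6.28, while Mki67 stood at 6.05. Among the Slug-/- arrays, that replicate was also lowest for Cdk1, Top2a, Ccna2, Tyms and Pcna, but not for the other markers. Whether Ezh2 follows the cycling markers was not tested.

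The 5 genes whose values ran most like those of Kdm6a, the gene with the smallest p of the 10, were Lipa, Dnajc11, Psap, Vps4b and Cript. Pearson's r across the 6 arrays was 0.994 for Lipa and 0.985 for Cript. These are the highest of 11911 genes above the background guide and are given as a description. Psap had 9.56, 9.78 and 10.14 in Slug-/- SCs, against 9.23, 9.09 and 9.56 in Slug+/+ SCs. Its 6 arrays stood in the same order as those of Kdm6a, replicate 2 of Slug+/+ SCs being lowest and replicate 3 of Slug-/- SCs highest.

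Checks of the samples bear on all of these values. Snai2, the gene of Slug, had a log2 difference of -1.53 with no overlap (adjusted p = 0.435 from limma), and the sources used here do not say whether its probes lie in the deleted stretch. All 9 SC markers measured, Pax7 among them, were above the background guide on every array, and 0 of them passed at an unadjusted p of 0.05. Of 5 blood and immune markers, Cd68 was lower (-0.96, unadjusted p = 0.00354, adjusted p = 0.726 from limma), with a summed list signal on the linear scale of 61.2 to 64.2 in Slug-/- SCs, against 85.7 to 137 in Slug+/+ SCs, while Ptprc, Itgam and Adgre1 lay under the background guide on all arrays. Cd68 was the brightest of the 5, so that sum mostly restates it, and Cd3e had a difference of 0.06. The summed signal of the cycling markers was 370 to 642 in Slug-/- SCs, against 353 to 371 in Slug+/+ SCs, so the groups overlapped. Pcna, the brightest of these markers, had a difference of 0.02. The summed signal of 5 genes of activated or committed SCs, Myog among them, was 268 to 699 in Slug-/- SCs, against 200 to 231 in Slug+/+ SCs. Of these 5, Myod1 (0.27), Myh3 (0.04) and Ckm (-0.21) did not pass. Endothelial, fibro-adipogenic, mural, fibre, Schwann and tenocyte lists overlapped between genotypes in their summed signal, with Emcn (0.74) and Lum (1.05) higher at an unadjusted p of 0.05 and all values of Emcn under the background guide. Genes of smallest p among those that did not pass are given with their log2 differences in brackets. They were Itga7 (0.35) and Vcam1 (0.32) for SCs, Mymk (0.64) for committed SCs, Adgre1 (-0.30) for immune cells, Kdr (0.33) for endothelium and Pdgfra (-0.12) for fibro-adipogenic cells. For mural cells they were Kcnj8 (-0.24) and Acta2 (0.22), for fibres Acta1 (0.52) and Mb (-0.40), for Schwann cells S100b and Sox10 (0.15 and -0.06), and for tenocytes Scx (0.36) and Tnmd (-1.09). Their part in the differences of the 10 genes was not tested.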

How the data were processed

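Total RNA of sorted SCs was labelled with the Affymetrix WT Plus protocol and hybridised to Mouse Gene 2.0 ST arrays. The authors' values came from Affymetrix's Gene Expression Console, and what they deposited is a log2 value for each probe set on each array. Not given in the sources used here were its algorithm, version and genome build. Array medians lay between 2.87 and 2.96 over 41345 probe sets. The number of arrays limits the precision.

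Genotypes and replicate numbers came from the sample labels, and 0 sample columns were left unused. Gene symbols came from GEO's platform annotation, where 23521 probe sets carried exactly 1 symbol. All 10 genes matched RefSeq by Entrez ID. Slug-/- was compared with Slug+/+ by limma 3.58.1 under R 4.3.3 (lmFit, then eBayes, without covariates), with Benjamini-Hochberg adjustment over 22180 genes. No dim probe set was removed. Background was guided by 1089 olfactory receptor genes. The limma fit was tested on simulated data with known shifts. The 10 genes, the other lists and the motifs were chosen with earlier results of these data known. Named genes are the 10, Snai2, Cdkn2a, and in each list those at an unadjusted p of 0.05 or the pair of smallest p; others are named after their values were seen. Within-array pairs were compared by exact permutation over 20 splits. The alternatives tried were quantile normalization, array medians subtracted, array weights, an intensity trend, a robust prior, an unmoderated unpaired test, every probe set or their mean per gene, a filter at the median signal, a replicate block, and each array left out.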

Additional observations from a re-analysis of the deposited data

How the results depend on the processing

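Over 16 alternatives, the 160 differences of the 10 genes stayed on their side of an adjusted p of 0.05 in limma or the plain test (smallest adjusted p 0.651), and 144 kept their sign. Suz12, Jarid2, Rbbp4, Rbbp7 and Kdm6a kept it in all 16, though not their size. The plain test, intensity trend, robust prior, fit of every probe set, median-signal filter and replicate block left each difference as it was. Signs could not turn under those settings, and the mean of probe sets moved only Rbbp4 and Kdm6b. With quantile normalization the differences of Eed, Ezh1 and Ezh2 were -0.10, -0.066 and -0.032. Leaving out 1 array in turn moved Eed between -0.23 and 0.31, Ezh1 between -0.23 and 0.29, Ezh2 between -0.084 and 0.37, Kdm6b between -0.33 and 0.11, Mtf2 between -0.11 and 0.54, Suz12 between 0.014 and 0.22, Jarid2 between -0.69 and -0.097, Rbbp4 between 0.30 and 0.61, Rbbp7 between 0.34 and 0.62 and Kdm6a between 0.36 and 0.71. The median of the 10 was 0.015 with quantile normalization (all genes, -0.005) and 0.02 to 0.27 on leaving out an array, lowest when replicate 3 of Slug-/- SCs was left out and highest when replicate 3 of Slug+/+ SCs was. The cause of these shifts was not tested.

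The count of the 10 genes at an unadjusted p of 0.05, 0 in the report, was 1 (Rbbp7) with array medians subtracted and 0 to 1 on leaving out an array: Kdm6a without replicate 1 of Slug-/- SCs or replicate 3 of Slug+/+ SCs, Rbbp7 without Slug-/- replicate 2 and Rbbp4 without Slug-/- replicate 3. The count of all genes at an adjusted p of 0.05 was 0 to 1 there, the 1 coming without Slug+/+ replicate 2. With the replicate number as a block, 2 of the 10 (Kdm6a and Rbbp7) passed an unadjusted p of 0.05, beside 6.51% of all genes, and 0 genes passed after adjustment (smallest adjusted p of the 10, 0.759). The numbers do not pair the samples by the labels, and deviations of same-numbered arrays correlated at 0.03, 0.02 and 0.13 across genes, with not every array closest to its own number. Values under the background guide limit the sizes given for Phf19, Has2, Pagr1a, Emcn, Myh3 and Adgre1. In Slug+/+ SCs they also limit those for Cdk1, Top2a, Ccna2 and, on 1 array, Mki67. On some but not all arrays, Lum, Tnmd, Pdgfra, Cd3e, S100b, Mb, Mcm5 and Rrm2 lay under the guide too, which limits their sizes as well.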
